A study of Mus musculus with 4 samples.

Results

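The regions described here are sites where FLAG-tagged FoxP3 was found by chromatin immunoprecipitation with sequencing (ChIP-seq) in mouse T cells that also received GATA1, away from both FoxP3 alone sites and RNA polymerase II (Pol II). They were chosen by their positions in 3 deposited peak lists. A peak of the FoxP3+GATA1 list was taken when it shared no base with any FoxP3 alone peak and when more than 20 kb, edge to edge, separated it from the nearest Pol II peak of its chromosome. The rule gave 2838 regions among the 9011 peaks of the FoxP3+GATA1 list, or 31.5% (95% interval 30.5 to 32.5), and among 31712 peaks in all 3 lists. Both conditions of the rule are readouts of these libraries. Counts that follow from them are therefore descriptions and carry no test.

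The cells were primary CD4+ conventional T cells from lymph nodes of C57BL/6 mice aged 6 to 8 weeks. They had been activated with beads against CD3 and CD28 and grown with 20 U/ml of human IL-2. In one group FLAG-FoxP3 was introduced together with GATA1 and in another FLAG-FoxP3 alone, and an anti-FLAG antibody was used on both. Pol II was precipitated with antibody N20 from cells labelled as carrying FLAG-FoxP3 and GATA1, although the description of that sample names only activated CD4 cells. A whole cell extract from cells labelled with no introduced factor served as the sequencing control, and its reads were not analysed here. Each group had 1 library, so nothing below has a replicate check. Intervals cover counting over peaks alone.

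FoxP3 is the forkhead transcription factor that defines regulatory T cells, and conventional CD4+ T cells are cells in which it was introduced artificially here. It is known to work together with other transcription factors at many of its sites. GATA1 is a zinc-finger factor of the red blood cell and megakaryocyte lineages that binds the GATA motif. Pol II peaks mark transcribed genes, above all at their starts, so sites far from any Pol II peak lie away from the starts marked in this list. Where GATA1 itself was bound was not measured in these libraries. No anti-FLAG precipitation from cells lacking FLAG-FoxP3 was used here, so non-specific precipitation and FoxP3 binding cannot be told apart.

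Positions are given in the build of the peak lists, with a first base of 1. Which build this is remains unclear: mm8 is named in the submitters' processing notes, yet the last peak on chromosome 7 ends at 152430305, beyond the end of that chromosome in mm8. The bases of the regions and the genes around them were not analysed here.

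FoxP3 peaks found only with GATA1 lay far from Pol II more often than the peaks found in both FoxP3 lists. In the FoxP3+GATA1 list, 64.8% of peaks shared no base with a FoxP3 alone peak, 5840 in number, and are called GATA1-only from here on. Over the whole list 36.4% of peaks lay more than 20 kb from Pol II. Among GATA1-only peaks it was 48.6% (47.3 to 49.9), which are the 2838 regions. Among the 3171 peaks shared with the FoxP3 alone list it was 13.9% (12.7 to 15.1), or 440 peaks. The difference was 34.7 percentage points (32.9 to 36.45). Peaks found only in the FoxP3 alone list stood between, with 673 of 1895 far from Pol II, or 35.5% (33.4 to 37.7). Being called in only 1 of the lists is not proof of unequal occupancy, because a site may have missed the threshold of the other library by little.

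The share far from Pol II among GATA1-only peaks was much the same at every score. The score is the peak caller's own value for a peak, higher where reads stand out more from the extract, and it was compared only within the FoxP3+GATA1 list. When that list was cut into 10 score deciles, the share of GATA1-only peaks far from Pol II ran from 45.1% (41.6 to 48.7) in the lowest decile, scores 70.56 to 127.8, to 47.0% (40.4 to 53.6) in the highest, scores of 399.3 and above. Its highest value was 52.4% (48.7 to 56.1), in the fourth decile from the bottom. Shared peaks had 20.5% (15.0 to 27.3) in the lowest decile and 11.8% (9.60 to 14.4) in the highest, with a lowest value of 7.27% (5.39 to 9.75) in the decile below the highest. In each of the 10 deciles the share was higher among GATA1-only than among shared peaks. Both properties belong to the rule, so these shares are a description, and the part of the calling threshold in them was not tested.

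**Figure D1:**
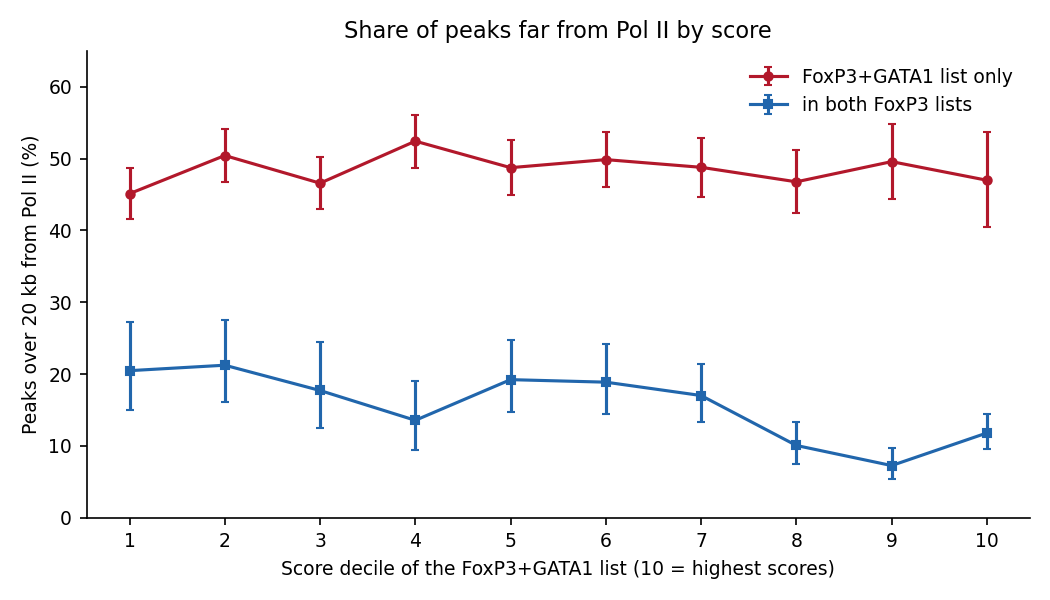
Percent of peaks lying over 20 kb from Pol II (vertical axis) in each score decile of the FoxP3+GATA1 list (horizontal axis), for peaks of that list only and for peaks in both FoxP3 lists, with Wilson 95% intervals as bars. The first series stays between 45.1% and 52.4%, and the second between 7.27% and 21.2%.

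Most of the sequence spanned by the lists is itself far from Pol II, so the regions were also counted per Mb of such sequence. Of the 2571 Mb between the first and last peaks of the chromosomes, 79.7% lay over 20 kb from a Pol II peak, 19.8% within 20 kb and 0.476% inside Pol II peaks. GATA1-only peaks with their centre inside a Pol II peak numbered 150.3 per Mb (143.5 to 157.3). Between 1 bp and 20 kb away there were 2.27 per Mb (2.15 to 2.41). From there the density was lower in steps, at 1.85 (1.73 to 1.99) per Mb at 20 to 50 kb, 1.74 (1.62 to 1.88) at 50 to 100 kb and 1.38 (1.27 to 1.49) at 100 to 200 kb. It was 1.06 (0.975 to 1.16) at 200 to 500 kb and 0.688 (0.593 to 0.793) beyond 500 kb. Per Mb of spanned sequence, unmappable parts included, far regions were thus sparse, and they were sparsest deepest in sequence without Pol II. Between the classes of 1 bp to 20 kb and 20 to 50 kb, the density of GATA1-only peaks went from 2.27 to 1.85 per Mb. That of shared peaks went from 0.517 to 0.281. These classes go by peak centre, so the nearer one also holds peaks that overlap Pol II but are centred outside it. Of GATA1-only peaks 1949 overlapped Pol II and 1839 were centred in it. A step at the edge distance of the rule was therefore not tested.

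Beyond 20 kb from Pol II, the balance between GATA1-only and shared peaks changed little with distance. GATA1-only peaks made up 42.7% (41.3 to 44.2) of FoxP3+GATA1 peaks centred in a Pol II peak and 81.5% (79.4 to 83.4) of those 1 bp to 20 kb away. At 20 to 50 kb they made up 86.8% (84.5 to 88.8), at 100 to 200 kb 85.4% (82.6 to 87.8) and beyond 500 kb 88.0% (83.0 to 91.7). The intervals of all 5 distance classes beyond 20 kb overlapped. Shared peaks had a density of 0.281 per Mb at 20 to 50 kb and 0.0941 beyond 500 kb, and peaks of the FoxP3 alone list only had 0.451 and 0.123. All 3 kinds of FoxP3 peak were therefore sparser per Mb of spanned sequence far from Pol II. How much of each distance class can be covered by sequencing reads was not tested.

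**Figure D2:**
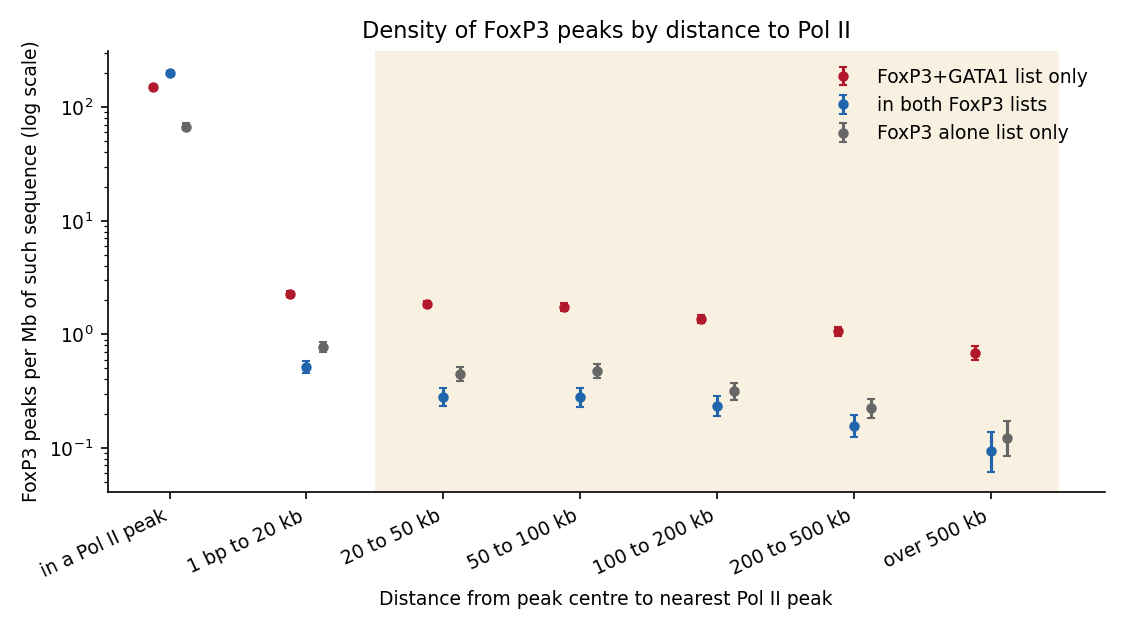
FoxP3 peaks per Mb of sequence (vertical axis, log scale) by distance from the peak centre to the nearest Pol II peak (horizontal axis), for peaks of the FoxP3+GATA1 list only, of both lists and of the FoxP3 alone list only, with exact Poisson 95% intervals. Shading marks distances over 20 kb, where the first kind goes from 1.85 to 0.688 per Mb.

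The distance of the regions to Pol II, which the rule used, had a median of 88762 bp (quartiles 44274 and 197995). Between 20 and 50 kb lay 815 regions, or 28.7%, and between 50 and 100 kb 727. Further out were 593 regions at 100 to 200 kb, 513 at 200 to 500 kb, 153 at 500 to 1000 kb and 37 beyond 1000 kb. The farthest, chr14:4734799-4735367, lay 3067725 bp from Pol II and had a score of 173.4. It lay before the first Pol II peak of its chromosome, so it had Pol II on a single side. Next were chrX:87156867-87157432 at 2011905 bp (score 204.3) and chr2:96582051-96582612 at 1919492 bp (score 149.3). They were followed by chrX:145500592-145500982 at 1785185 bp (score 263.7) and chr2:95854155-95854540 at 1575377 bp (score 284.1). These remote peaks were of ordinary strength, ranking between 2018 and 7026 of the 9011 peaks of the list. Just inside the limit were chr15:37911319-37911858 at 20013 bp (score 169.2), chr5:114315382-114316018 at 20036 bp (score 147.0) and chr3:130927338-130928059 at 20085 bp (score 117.2). GATA1-only peaks just outside it were chr4:58995018-58995662 at 19945 bp (score 285.6), chr2:158567136-158567673 at 19936 bp (score 160.2) and chr19:47064234-47064911 at 19774 bp (score 140.8).

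By score, the regions were mostly middling peaks of their list with a short strong tail. Their median score was 178.4 (176.5 to 180.9), with quartiles of 147.1 and 222.6 and a range from 70.56 to 1329. The lowest, at chr4:117348812-117349441, sits at the lowest score of the whole list. GATA1-only peaks within 20 kb of Pol II but not on it numbered 1053 and had a median of 164.9 (161.2 to 167.8). The 1949 GATA1-only peaks that overlapped Pol II had 186.2 (181.9 to 189.6), so the far regions lay between these 2 groups. Shared peaks far from Pol II had a higher median, 214.7 (203.3 to 226.6). A score of 300 or more was reached by 265 of the regions, or 9.34% (8.32 to 10.5), against 10.9% (9.62 to 12.4) of GATA1-only peaks at Pol II and 27.05% (23.1 to 31.4) of shared peaks far from it. At 500 or more there were 50 regions, or 1.76% (1.34 to 2.32), and 60 of the 440 shared far peaks, or 13.6% (10.7 to 17.2). Other GATA1-only peaks had a like share, 1.99% (1.31 to 3.03) near Pol II and 2.05% (1.51 to 2.78) at Pol II. The regions made up 36.8% of the lowest score decile of the list, 40.8% of the fourth and 11.2% (9.31 to 13.4) of the highest.

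Among the regions the score was somewhat higher farther from Pol II. The median was 169.1 (165.1 to 173.4) at 20 to 50 kb, 174.9 (170.7 to 179.3) at 50 to 100 kb and 180.6 (174.6 to 186.6) at 100 to 200 kb. It was 194.2 (187.9 to 200.8) at 200 to 500 kb, 191.2 (183.9 to 208.5) at 500 to 1000 kb and 206.3 (180.3 to 227.7) beyond. Neighbouring distance classes mostly had overlapping intervals, while those of 20 to 50 kb and 200 to 500 kb did not. Median width went the other way, from 583 bp (577 to 589) at 20 to 50 kb to 569 (561 to 579) at 200 to 500 kb and 548 (470 to 564) beyond 1000 kb. Peaks in the remotest sequence were thus slightly narrower, slightly higher in score and fewer per Mb, with unmappable sequence counted in the Mb.

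**Figure D3:**
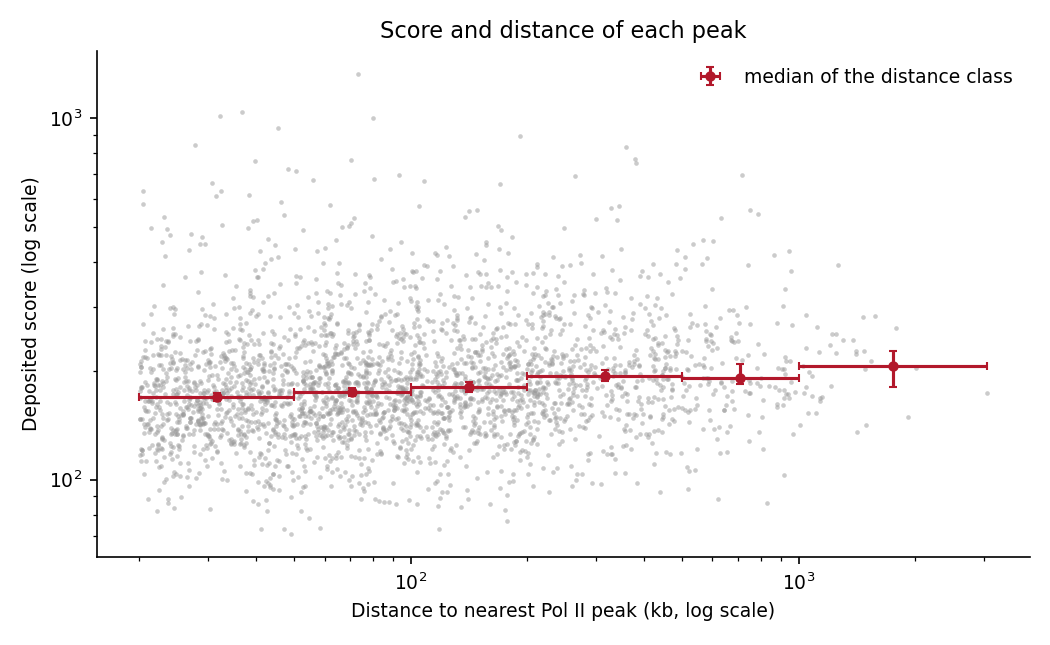
Deposited score (vertical axis, log scale) against distance to the nearest Pol II peak in kb (horizontal axis, log scale) for each of the 2838 regions as grey points. Red points are medians of 6 distance classes with 95% intervals upright and the width of the class across; they go from 169.1 at 20 to 50 kb to 206.3 beyond 1000 kb, within a broad cloud.

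The strongest regions lay on many chromosomes. The highest score, 1329, belonged to chr10:6104701-6105161, a peak of 461 bp that ranked 72 in the list and lay 73.3 kb from Pol II and 145.7 kb from the nearest FoxP3 alone peak. The second, chr8:59762886-59763303, scored 1045 over 418 bp, 36.7 kb from Pol II and 245.6 kb from a FoxP3 alone peak. At chr4:144485313-144486095 a 783 bp peak scored 1017. There the nearest Pol II peak, FoxP3 alone peak and other FoxP3+GATA1 peak lay 32.2, 32.4 and 32.2 kb away, so each of the 3 lists had a peak at nearly the same distance. A 1132 bp peak at chr11:79604361-79605492 scored 1004, with Pol II 79.8 kb and another FoxP3+GATA1 peak 79355 bp away. The fifth, chr2:92500847-92501906, scored 943.4 and again had peaks of the Pol II and FoxP3 alone lists at nearly the same distance, 45.4 and 45.7 kb.

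The other 5 of the 10 highest scored between 766.5 and 895.7. On chromosome 11, chr11:67820220-67820876 (score 895.7) lay 191.2 kb from Pol II and chr11:106445329-106446122 (score 846.3) 27.8 kb. The peak at chr5:127400429-127401358 (score 831.8) lay 358.5 kb from Pol II and 345.6 kb from a FoxP3 alone peak. For chr14:95656997-95657810 (score 773.3) the distances were 379.6 and 33.3 kb, so a FoxP3 alone peak was the nearer neighbour. For chr2:169769975-169770695 (score 766.5) they were 70.2 and 665.4 kb. None of these 10 had another of the regions within 50 kb. Of the 100 highest-scoring regions 12 had one, near the 14.4% of all the regions, and the 100 lay on 19 chromosomes.

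The regions were about as wide as other FoxP3+GATA1 peaks off Pol II, and the narrowest ones scored high. Median width was 577 bp (574 to 580), with quartiles of 520 and 641. GATA1-only peaks near Pol II had 581 bp (577 to 585) and shared peaks far from it 584.5 bp (577 to 594), with intervals that overlap that of the regions. Shared peaks near Pol II had 589 bp (578 to 605). Peaks at Pol II were wider than the regions, with 588 bp (585 to 591) for GATA1-only and 633 bp (624 to 644) for shared ones. The interval of these GATA1-only peaks lay within those of shared peaks near and far from Pol II. The whole list had 589 bp. Widths piled up between 575 and 599 bp, with 492 regions, and in a smaller group of 130 between 375 and 399 bp. The score was lowest in the first of these groups and higher on both sides. Regions of over 550 to 600 bp had a median score of 155.2 (152.7 to 158.3), those up to 400 bp 263.4 (254.5 to 279.6) and those over 800 bp 208.9 (191.5 to 238.1). The same dip was present in GATA1-only peaks at Pol II, with 237.1 up to 400 bp, 156.6 at over 550 to 600 bp and 265.8 over 800 bp. Among shared peaks far from Pol II the widest class scored much higher, 460.4 (356.9 to 569.9) over 800 bp. Of the regions 7.12% were over 800 bp, close to the 7.98% of GATA1-only peaks near Pol II and below the 10.4% of those at Pol II. Among shared peaks it was 12.5% far from Pol II and 21.6% at Pol II.

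**Figure D4:**
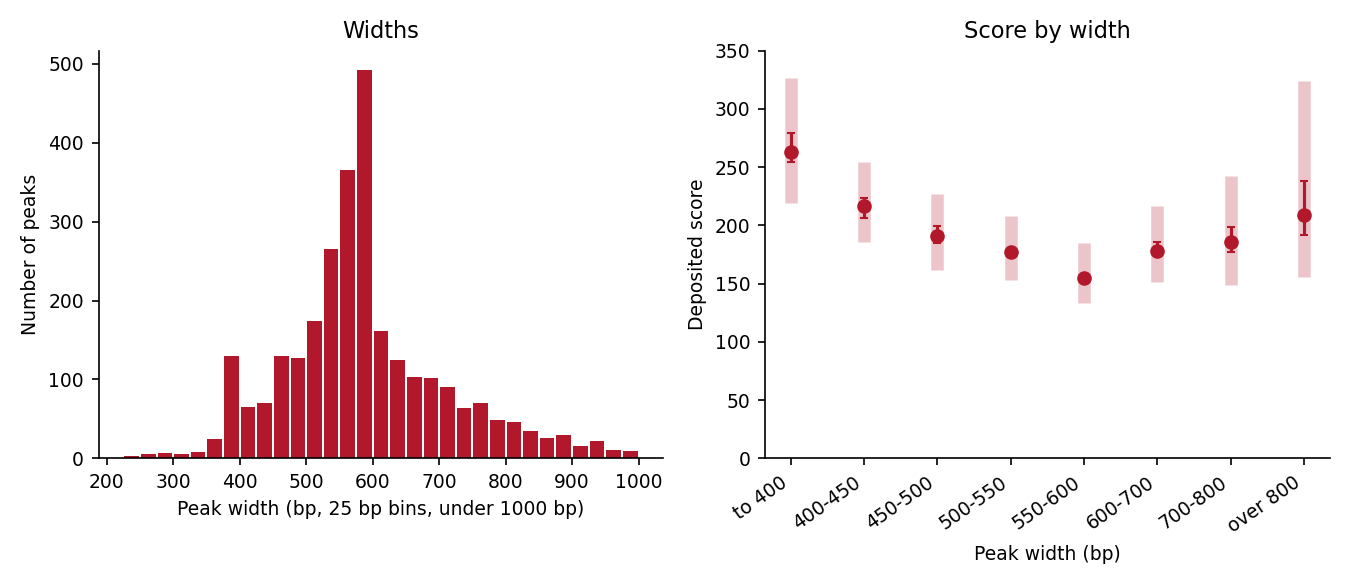
Left, number of regions (vertical axis) by peak width in 25 bp bins below 1000 bp (horizontal axis). Right, median deposited score (points, with 95% intervals as thin bars and quartiles as pale bars) by width class in bp. The fullest bin is 575 to 599 bp, with 492 regions, and the class of over 550 to 600 bp has the lowest median score, 155.2.

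The extremes of width were of different kinds. The widest region, chr4:3016236-3018610, measured 2375 bp and scored 394.2. It lay 483.1 kb from Pol II. The next widest were chr13:10448845-10449999 with 1155 bp (score 459.1), the fourth-ranked region on chromosome 11 named above, chr19:50384553-50385678 with 1126 bp (score 86.34) and chr12:36398475-36399574 with 1100 bp (score 425.2). The region on chromosome 19 was thus wide and weak, ranking 8939 in the list. The narrowest were chr10:106913979-106914214 with 236 bp (score 500.8), chr8:17122716-17122957 with 242 bp (score 498.8) and chr6:20923116-20923361 with 246 bp (score 575.1). All 3 ranked within the top 524 of the list.

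Few of the regions had a FoxP3 alone peak close by. The rule bears on this, since it asked for no shared base and also for sequence away from Pol II. The median distance to the nearest FoxP3 alone peak was 189540 bp (179053 to 202077), against 68084 bp for GATA1-only peaks near Pol II and 131126 bp for those overlapping it. Just 6 regions had a FoxP3 alone peak within 1 kb, 40 within 10 kb, or 1.41% (1.04 to 1.91), and 418 within 50 kb, or 14.7% (13.5 to 16.1). The closest pairs were chr4:53892081-53892625, 61 bp from a FoxP3 alone peak that scored 360.9, and chr13:101288370-101288923, 96 bp from one that scored 311.7. In chr18:22501827-22502383 the distance was 170 bp and the score of that peak 477.9. These 3 had scores of 198.9, 133.2 and 150.4 in their own list, and each lay beside a FoxP3 alone peak without touching it. The region on chromosome 13 also had another FoxP3+GATA1 peak 290 bp away. Which of these FoxP3+GATA1 peaks the FoxP3 alone peak matches was not tested.

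Along the chromosomes most regions had no other of them close by. The median distance to the next of them was 264680 bp (253259 to 283759), and to the next FoxP3+GATA1 peak of any kind 102666 bp (97201 to 108052). Another FoxP3+GATA1 peak lay within 10 kb of 4.23% (3.55 to 5.03) of the regions. That was close to the 4.09% (2.60 to 6.37) of shared peaks far from Pol II. It was below the 20.9% (18.6 to 23.5) of GATA1-only peaks near Pol II and the 13.2% (11.8 to 14.8) of those overlapping it. The nearest FoxP3+GATA1 neighbour was itself one of the regions in 43.3% (41.5 to 45.2) of cases, and they made up 31.5% of the list. It was a shared peak at Pol II in 23.0% (21.5 to 24.6), and those made up 28.1%. The rule fixes part of this, since it picked sequence away from Pol II. The 2838 regions were spread over 2050 Mb of sequence over 20 kb from Pol II. How their spacing compares with that of as many sites placed at random there was not tested.

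Groups of the regions were small. Joined across gaps of up to 50 kb, the regions formed 2429 single sites, 182 pairs and 15 groups of 3, with no group of 4 or more. In all, 409 regions, or 14.4% (13.2 to 15.75), had another within 50 kb. The tightest group of 3 spanned 7630 bp at chr2:154382328-154389957, with scores from 104.0 to 232.1. Others of 3 lay at chr13:29295779-29313585 (scores 144.5 to 192.0), chr12:17450660-17476159 (131.7 to 165.4), chr14:47577832-47612519 (104.8 to 168.4) and chr2:118291540-118329293 (174.9 to 225.7). No peak in these 5 groups scored above 232.1.

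The stretches between successive Pol II peaks that could hold a region, those over 40 kb long, numbered 9723. Of these, 2027 held at least 1 region, or 20.85% (20.05 to 21.7): 1482 held 1, 384 held 2 and 161 held 3 or more. Another 14 regions lay beyond the first or last Pol II peak of their chromosome. Long stretches more often held one, from 5.41% (4.76 to 6.15) of those of 40 to 100 kb to 79.6% (70.3 to 86.5) of the 93 stretches over 2000 kb. Per Mb of their sequence over 20 kb from Pol II, the order was the opposite: 2.25 (1.97 to 2.55) in the shortest class and 0.689 (0.591 to 0.800) in the longest.

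A few long stretches were well filled and others nearly empty. The most regions in one stretch were 8. One such stretch, chr5:50246798-52458573, held scores from 146.6 to 234.3, and the other, chr2:94278778-98502104, held scores from 149.3 to 336.6. Neither contained any FoxP3 alone peak. The longest stretch of all, chr7:39056201-46772793, was 7716593 bp long and held 1 region, with a score of 201.6. On chromosome X the stretch chrX:23586068-30134652, 6548585 bp long, held none and no FoxP3 alone peak. Filling of the longest stretches therefore differed widely between positions. How much of each can be covered by sequencing reads was not tested.

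Chromosome X held few of the regions for its length. Of its span, 93.0% lay over 20 kb from Pol II, which gave 151.3 Mb, and 72 regions were found there. Their density was 0.476 per Mb (0.372 to 0.599), against 1.46 per Mb (1.402 to 1.511) for 2761 regions on the autosomes, a ratio of 0.327 (0.255 to 0.413). Far sequence on X lies farther from Pol II, with 29.3% of it beyond 500 kb against 12.15% on autosomes, so the 2 were also set side by side at like distances. The ratio was 0.442 (0.228 to 0.777) at 20 to 50 kb, 0.371 (0.197 to 0.639) at 50 to 100 kb and 0.454 (0.267 to 0.723) at 100 to 200 kb. It was 0.310 (0.176 to 0.508) at 200 to 500 kb and 0.391 (0.204 to 0.686) beyond. X was thus below the autosomes in each of the 5 distance classes. Among the 218 FoxP3+GATA1 peaks on X, the regions made up 33.0% (27.1 to 39.5), near the 31.5% of the whole list. Pol II peaks were sparser on X too, at 1.88 per Mb of span against at least 5.28 on each autosome. Other FoxP3 peaks far from Pol II were also sparser on X, with ratios of 0.5345 (0.314 to 0.855) for shared peaks and 0.445 (0.280 to 0.673) for peaks of the FoxP3 alone list only. These intervals overlap that of the regions. The scores of the regions on X, with a median of 185.5, resembled those elsewhere. The sex of the mice, and so the number of X copies per cell, was not used here, and its part in the density was not tested.

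On the autosomes, densities lay between 1.19 per Mb (0.957 to 1.46) on chromosome 16 and 2.00 (1.60 to 2.47) on chromosome 19. Chromosome 9 followed with 1.93 (1.65 to 2.23), and these 2 had intervals wholly above the autosomal density of 1.46. The intervals of the other autosomes reached 1.46 at the digits given here. Chromosome 17 had the lowest share of its FoxP3+GATA1 peaks among the regions, 22.8% (18.9 to 27.3), and chromosome 11 the next, 26.0% (22.4 to 30.0). Per Mb of far sequence they were ordinary, at 1.25 (1.00 to 1.55) and 1.65 (1.38 to 1.96). The highest such share on an autosome was 37.0% (32.8 to 41.4), on chromosome 3. Median scores by autosome ranged from 166.9 on chromosome 7 to 197.9 on chromosome 3.

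**Figure D5:**
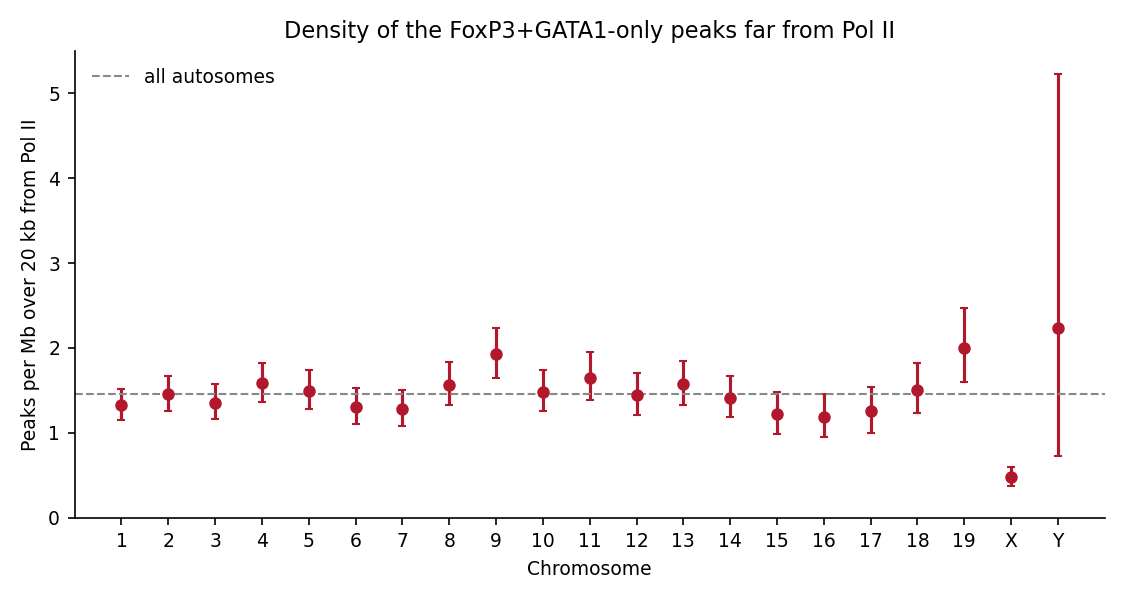
Regions per Mb of sequence over 20 kb from Pol II (vertical axis) on each chromosome (horizontal axis), with exact Poisson 95% intervals; the dashed line is the density over all autosomes, 1.46 per Mb. X stands below every autosome at 0.476, and the 5 regions on Y give a wide interval.

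Chromosome Y, of which the lists span little, held 5 of the regions out of 7 FoxP3+GATA1 peaks. Their scores were 222.4 at chrY:1246131-1246718, 557.9 at chrY:1900763-1901094, 695.9 at chrY:1936782-1937421, 241.8 at chrY:1978732-1979242 and 348.4 at chrY:2605612-2605976. All 5 lay above the median of the regions. The density there, 2.24 per Mb, carries an interval of 0.727 to 5.22 and so spans that of the autosomes. Y sequence is known to be rich in repeats, and the treatment of reads that match several places is among the settings not given in the sources used here.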

How the data were processed

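Peaks were deposited as 1 list per precipitated library, each with a chromosome, start, end, name and score. The tools named in the submitters' processing notes are Bowtie, FastQC and MACS 1.4.0rc2, with mm8 as the build, and their settings are not stated there. By their names the lists were called over the same extract lane. The deposited score is, in the usual layout of that caller, 10 times the negative log10 of the p-value. It depends on read depth, which is unknown here, and was compared only within a list. Lowest scores were 70.56, 70.75 and 50.02 for FoxP3+GATA1, FoxP3 alone and Pol II. Start and end are in bp, and 1 was added to deposited starts.

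Distances count the bases between peak edges. Density by distance class divides peaks, placed by centre, by the sequence in each class within the span of the lists. Densities by chromosome and by stretch between Pol II peaks count peaks by edge-to-edge distance instead. So do the ratios of X to autosomes over all far sequence. Unmappable sequence is included throughout. Shares carry Wilson, densities exact Poisson, ratios exact conditional and medians order-statistic 95% intervals, and differences of shares Newcombe's. No test was run. Python 3.11.15, numpy 2.4.6, pandas 2.3.3 and scipy 1.17.1 were used. Bedtools 2.31.1 found the same 2838 peaks, and the distance code was tested on simulated data. Members, lists and rule were chosen with earlier results of these data known. The rule for named regions took the 10 highest-scoring, 5 farthest, 5 widest, 3 narrowest, the 3 nearest to FoxP3 alone, 3 on each side of 20 kb and the 5 groups with the most regions across gaps of up to 50 kb, ties taken by shorter span, here the 5 shortest of 15 groups of 3. The lowest-scoring region, the stretches between Pol II peaks and the Y regions were named after their values were seen. The planned motif counts were not run, since no genome of that build was used.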

Additional observations from a re-analysis of the deposited data

How the results depend on the processing

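No paired analysis was possible because there was 1 library per group. Among 42 alternative values, 30 stayed within the interval of the reported value (for the count, within 1.5 times), and 12 moved. A direction was defined only for the difference in the share far from Pol II and for the ratio of X to autosomes. Of the alternative values of these results, 0 changed direction. With scores of at least 200 there were 1030 regions instead of 2838. At over 50 kb from Pol II the median score was 183.5 and the median distance to a FoxP3 alone peak 241958 bp; at over 10 kb the latter was 171575 bp. Another region lay within 20 kb of 5.88% and within 100 kb of 24.45%, by construction of the gap. The next settings were chosen after seeing the data. The share of GATA1-only peaks among FoxP3+GATA1 peaks far from Pol II, 86.6%, was 80.5% at scores of at least 200 and 82.9% with Pol II peaks of at least 100. The difference of 34.7 points from shared peaks was 39.8 at over 10 kb, 24.6 at over 50 kb, 37.4 at scores of at least 200 and 37.3 with Pol II peaks of at least 100. The ratio of X to autosomes ran from 0.307 to 0.365. Beyond the settings' own construction the cause was not tested. Depth is unknown, so absence from a list is not absence of binding.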
